A study of Saccharomyces cerevisiae with 12 samples.

Results

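The strain by potassium interaction asks whether deleting *SIS2* changed a transcript by a different factor in low than in standard potassium. For each gene it is the log2 ratio of *sis2*Δ to WT in 0.5 mM KCl minus the same ratio in 7.35 mM KCl, which is also the log2 ratio of 0.5 to 7.35 mM KCl in *sis2*Δ minus that in WT. A positive value thus means that the mutant stood higher relative to WT in low potassium than in standard potassium. It uses all 12 of the 12 RNAseq libraries of the series, in 4 groups of 3 biological replicates: *sis2*Δ and WT in 0.5 mM KCl, and *sis2*Δ and WT in 7.35 mM KCl. WT was the prototrophic MATa strain CGY41.30, and *sis2*Δ was CGY41.34, a MATa strain in which kanMX replaces *SIS2*. The mutant is represented by 1 strain. All cultures were grown overnight in standard potassium and then for 24 h in their own medium. They were kept in exponential phase, at an OD600 of no more than about 0.1. The paper's general medium was synthetic complete with glucose and ammonium sulfate at pH 4.5. For potassium titrations it used a custom potassium-free medium, in which a sodium phosphate salt replaced the ammonium one. Ammonium sulfate or arginine was added to that medium as nitrogen source. The paper's account of the RNAseq cultures does not name their nitrogen source. By the labels the groups differ in the *SIS2* locus and in the KCl of those 24 h, and in no other treatment.

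Sis2p (also called Hal3p) inhibits the protein phosphatase Ppz1p and is also a subunit of the enzyme that decarboxylates phosphopantothenoylcysteine on the way to coenzyme A. Ppz1p restrains potassium uptake through the Trk transporters, so Sis2p favours uptake from inside the cell, while the medium sets how much potassium there is to take up. On the log2 scale an interaction of 0 means that the folds of the deletion and of the medium simply multiply.

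*SIS2* (YKR072C, chromosome XI, 576435 to 578123 in R64) had 54.0, 69.5 and 88.5 counts in *sis2*Δ in 0.5 mM KCl, against 3808, 3120 and 3472 in WT. In 7.35 mM KCl it had 60.3, 39.5 and 54.5 counts in *sis2*Δ, against 3720, 3193 and 3751 in WT. Every library thus matched its labelled genotype. The interaction of *SIS2* itself was 0.58 on the log2 scale (SE 0.181, adjusted p = 0.0923 by edgeR's quasi-likelihood test). YKR073C, the next gene in the annotation, was also lower in the mutant, by a log2 value of -0.70 in 0.5 mM KCl and -1.61 in 7.35 mM KCl, and its place beside the deletion was noticed after its values were seen. Its interaction was 0.91, and it is among the 114 genes counted as positive below.

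The libraries held between 35451323 and 46543107 counts, many of them not whole numbers, as happens when a read shared by several features is divided between them. Levels are given as CPM, each count relative to the total of its library after scaling by the TMM method. Replicates varied by a common biological coefficient of variation of 5.70%, and 6691 of 7112 features passed the low-count filter and were tested. Genes specific to MATa cells summed to between 2129 and 3029 CPM in each library and those specific to MATalpha cells to between 45.7 and 73.0 CPM. Libraries are of whole cultures, so that fewer cells with a transcript and less of it per cell cannot be told apart.

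At an adjusted p under 0.05 (edgeR's quasi-likelihood test, p-values adjusted after Benjamini and Hochberg over all 6691 features), 183 genes (2.74%) had an interaction and are referred to as called. Of these, 114 (1.70%) were positive and 69 (1.03%) negative, and 996 genes had an unadjusted p under 0.05. The median interaction of all genes was -0.00325. Among called genes the absolute interaction had a median of 0.521 and started at 0.296, and it reached 1 for 23 genes. In the simpler comparisons from the same libraries, 119 genes (1.78%) differed between the strains in 0.5 mM KCl and 898 (13.4%) in 7.35 mM KCl, while 3073 (45.9%) differed between the media in *sis2*Δ and 3165 (47.3%) in WT. Each of the 4 groups enters both a strain and a potassium comparison, so these counts are not independent of each other or of the interaction.

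The count of called genes depended on single libraries. It was 111 without *sis2*Δ replicate 1 in 0.5 mM KCl, 340 without *sis2*Δ replicate 2 in 0.5 mM KCl and 121 without WT replicate 2 in 0.5 mM KCl. Positive calls came to 69, 196 and 68 in those 3 fits and to 72 without *sis2*Δ replicate 3 in 0.5 mM KCl. Negative calls came to 42 and 144 without *sis2*Δ replicates 1 and 2 in 0.5 mM KCl and to 43 without WT replicate 3 in 7.35 mM KCl. With DESeq2, 241 genes were called, in another split of 122 positive and 119 negative. With the replicate number as a block, 249 genes were called, 144 positive and 105 negative, and all 183 were among them in the same direction. In each of the 12 fits that leave out 1 library, 98 of the 183 genes kept their call, 60 positive and 38 negative.

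In most called genes the strains lay closer together in low than in standard potassium. The log2 gap between *sis2*Δ and WT was smaller in absolute size in 0.5 than in 7.35 mM KCl for 63 of the 69 negative genes (91.3%) and 83 of the 114 positive genes (72.8%), against 4031 of all 6691 genes tested (60.2%). For the negative genes the median gap was -0.0272 in 0.5 mM KCl and 0.516 in 7.35 mM KCl. For the positive genes it was 0.183 in 0.5 mM KCl and -0.380 in 7.35 mM KCl. The strain difference passed the test in 7.35 mM KCl alone for 132 of the 183 genes, in 0.5 mM KCl alone for 22, in both for 18 and in neither for 11. Because the interaction is built from these gaps, the shares describe its shape and are not a test of it.

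Seen from the side of potassium, the 2 signs differed. Of the negative genes, 58 of 69 stood higher in 0.5 than in 7.35 mM KCl in both strains, against 2735 of all 6691. The median log2 value of the 69 was 0.533 in *sis2*Δ and 0.961 in WT. In 7.35 mM KCl, 68 of the 69 stood higher in *sis2*Δ than in WT, against 3339 of all 6691 (49.9%). That gap enters the interaction with a minus sign, so choosing negative genes largely sets this count. Of the positive genes, 53 of 114 moved in opposite directions in the strains, against 1225 of all 6691. The median of the 114 was 0.233 in *sis2*Δ and -0.262 in WT. These counts too describe the shape of the interaction and are not a test of it. On the unlogged CPM scale the sign of the difference of differences was the other one for 1 of the 183 genes and for 280 of the 6691.

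**Figure D1:**
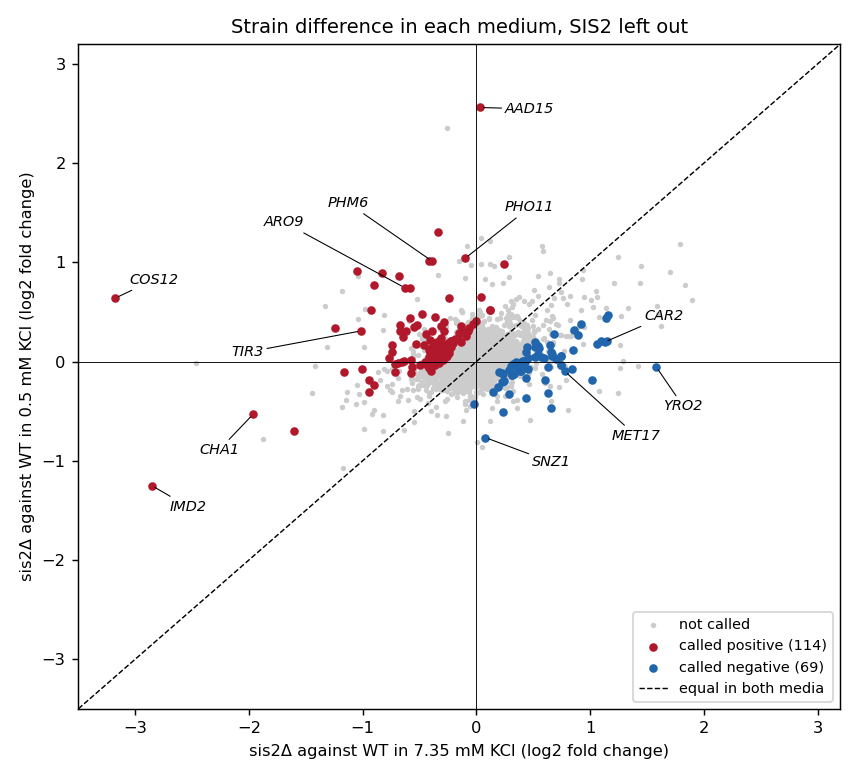
Log2 fold change of *sis2*Δ against WT in 7.35 mM KCl (x axis) and in 0.5 mM KCl (y axis) for each gene tested except *SIS2*; red, the 114 genes called positive; blue, the 69 called negative; grey, not called; dashed line, equal difference in both media. The red points spread left of the dashed line and the blue points right of it, and most of both lie nearer to 0 on the vertical than on the horizontal axis, as for *YRO2* with -0.06 on the vertical and 1.58 on the horizontal axis.

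Genes of the phosphate regulon were the list with the most positive calls. Pho4p switches these genes on when phosphate is short, and they encode phosphate transporters, secreted acid phosphatases and the enzymes that store phosphate as polyphosphate in the vacuole. Of 16 tested members, 8 were called positive and 0 negative, with a median interaction of 0.397 against -0.00325 for all genes, and 14 of the 16 had a positive value. Over all 6691 features, 1.70% were called positive and 1.03% negative. These shares are the background for the call counts of every list below. The median strain difference of the list was 0.629 in 0.5 mM KCl and 0.121 in 7.35 mM KCl. The list was written with earlier results of these libraries known.

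Among the secreted and membrane proteins of the regulon, *PHM6* (YDR281C, chromosome IV), a gene of unknown function that phosphate shortage induces, had 56.6, 52.1 and 62.9 CPM in *sis2*Δ and 30.2, 26.6 and 28.4 CPM in WT in 0.5 mM KCl. At the higher concentration it had 2.12, 1.94 and 2.22 CPM in *sis2*Δ and 2.79, 2.98 and 2.46 CPM in WT. The mutant was thus above WT in every library in low potassium and below it in every library in standard potassium, although the second difference did not pass the test (log2 -0.39, adjusted p = 0.0588). Its interaction was 1.40 (SE 0.151, adjusted p = 4.43e-06, edgeR's quasi-likelihood test), a ratio of ratios of 2.64. *PHO11*, a secreted acid phosphatase nearly identical to *PHO12*, had 151, 120 and 182 CPM in *sis2*Δ and 86.3, 65.9 and 68.3 CPM in WT in 0.5 mM KCl, against 5.18, 5.68 and 5.18 CPM in *sis2*Δ and 5.44, 5.71 and 6.02 CPM in WT in 7.35 mM KCl. Its strains separated only in low potassium, with an interaction of 1.14 (SE 0.194, adjusted p = 0.00130, edgeR's quasi-likelihood test). *PHO5*, the main repressible acid phosphatase, had an interaction of 0.74 (SE 0.138, adjusted p = 0.00331). Reads could be split between *PHO11* and *PHO12*, and *PHO12* at 0.56 did not pass the test (adjusted p = 0.0783).

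*GIT1*, the permease for glycerophosphoinositol, had 19.1, 19.6 and 24.5 CPM in *sis2*Δ and 16.0, 14.4 and 16.0 CPM in WT in 0.5 mM KCl, and 5.44, 5.43 and 4.22 CPM in *sis2*Δ and 6.88, 6.62 and 5.89 CPM in WT in 7.35 mM KCl. The strain difference passed the test in both media with opposite signs, with 0.45 for 0.5 mM KCl against -0.36 for 7.35 mM KCl. 3 subunits of the vacuolar polyphosphate polymerase were called, *VTC1* at 0.61 (SE 0.103), *VTC4* at 0.40 (SE 0.0891) and *VTC2* at 0.35 (SE 0.0801), while *VTC3* at 0.31 had an adjusted p of 0.0518 by edgeR's quasi-likelihood test, and of 0.0413 with the replicate number as a block. *PHM8*, a phosphatase induced by phosphate shortage, was the remaining called member at 0.39 (SE 0.106, adjusted p = 0.0488, same test), and it kept its call in 2 of the 12 fits without 1 library. The transporter *PHO84* and the regulator *SPL2* were not called. Nor were *PHO89* at 0.75 (SE 0.264, adjusted p = 0.149, same test), *PHO8* at 0.23, *PHO81* at 0.23 and *PHO86* at 0.17. *PHO84* had 2215, 2104 and 2266 CPM in *sis2*Δ and 1423, 1176 and 1198 CPM in WT in 0.5 mM KCl, and 72.6, 72.3 and 58.6 CPM in *sis2*Δ and 29.1, 26.2 and 32.8 CPM in WT in 7.35 mM KCl. Its gap was present in both media and its interaction was -0.41 (SE 0.129, adjusted p = 0.0923, edgeR's quasi-likelihood test), and that of *SPL2* was -0.01 (SE 0.229, adjusted p = 0.988).

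Only 2 of the 8 called phosphate genes hold the letters CACGTG, the core that Pho4p and Cbf1p can both bind, in the 250 bases before and 50 bases after the start codon, and they are printed because they carry it. Below are the 200 bases that end 51 bases before the start codon in the R64 sequence of RefSeq, 5′ to 3′ on the strand of the gene, with CACGTG in capitals. *VTC4* lies on the minus strand (chrX:413450-413649) and *VTC1* on the plus strand (chrV:302556-302755).
VTC4: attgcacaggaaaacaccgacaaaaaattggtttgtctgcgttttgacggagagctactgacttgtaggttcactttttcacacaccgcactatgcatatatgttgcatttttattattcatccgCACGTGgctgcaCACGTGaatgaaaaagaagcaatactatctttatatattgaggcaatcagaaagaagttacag
VTC1: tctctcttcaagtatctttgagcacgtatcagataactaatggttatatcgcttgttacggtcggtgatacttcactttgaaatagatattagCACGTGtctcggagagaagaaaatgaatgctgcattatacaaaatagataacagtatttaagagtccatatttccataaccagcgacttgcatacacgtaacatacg
The matches start 125 and 113 bases before the *VTC4* start codon and 157 bases before that of *VTC1*. CACGTG was in 6 of 107 promoters of positive genes (5.61%) and 1 of 61 of negative genes (1.64%), against 172 of all 5885 (2.92%), and in 4 of the 16 phosphate promoters (25.0%), 2 of them of called genes. The 6 include that of YKR073C, the gene beside the deletion. A match is a run of letters and no evidence of binding, and the window does not reach sites farther upstream.

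Several single enzymes of amino acid breakdown and nucleotide synthesis had large positive values. *ARO9* (YHR137W, chromosome VIII), the aminotransferase that starts the breakdown of aromatic amino acids, had 31.8, 29.8 and 36.8 CPM in *sis2*Δ and 20.0, 19.2 and 19.6 CPM in WT in 0.5 mM KCl. The levels in 7.35 mM KCl were 10.8, 11.8 and 9.77 CPM in *sis2*Δ and 16.6, 17.4 and 16.0 CPM in WT. The mutant was thus the higher strain in low and the lower strain in standard potassium, each time without overlap, and both differences passed the test, at 0.74 and -0.63. The interaction was 1.37 (SE 0.113, adjusted p = 1.02e-07, edgeR's quasi-likelihood test). The feature YHR137C-A, which by its name lies on the opposite strand at the same place, had 1.54, and the sources used here do not say whether the counting used strand, so the 2 cannot be told apart. The 4 other tested genes of that pathway were not called (1 of them was under the replicate block), among them the decarboxylase *ARO10* at 0.20 (SE 0.0984, adjusted p = 0.352) and the activator *ARO80* at -0.15 (SE 0.0909, adjusted p = 0.472).

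The *ARO9* promoter is printed because it holds 5 overlapping or neighbouring copies of the pattern that Aro80p binds, CCG, 7 bases of any kind and CCG, shown in capitals on either strand in the 200 bases that end 51 bases before the start codon (chrVIII:375459-375658, plus strand, R64 sequence of RefSeq).
ARO9: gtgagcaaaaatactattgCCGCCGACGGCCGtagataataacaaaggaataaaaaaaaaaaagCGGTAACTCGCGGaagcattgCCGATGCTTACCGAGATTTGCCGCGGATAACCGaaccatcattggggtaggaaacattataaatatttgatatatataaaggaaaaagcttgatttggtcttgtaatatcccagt
The 5 matches start 231, 186, 165, 155 and 145 bases before the start codon. On either strand the pattern was in 4 of 107 promoters of positive genes (3.74%), 2 of 61 of negative genes (3.28%) and 129 of all 5885 (2.19%).

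*IMD2*, an IMP dehydrogenase of guanine nucleotide synthesis, had 27.6, 24.0 and 22.2 CPM in *sis2*Δ and 65.6, 55.0 and 54.7 CPM in WT in 0.5 mM KCl. In 7.35 mM KCl it had 29.0, 25.8 and 25.7 CPM in *sis2*Δ and 196, 194 and 193 CPM in WT. The 6 mutant libraries were alike in both media, and the change with potassium lay in WT. The mutant was lower in both media, by log2 values of -1.25 and -2.85, and the interaction was 1.604 (SE 0.112, adjusted p = 8.83e-09, edgeR's quasi-likelihood test). *IMD2* has close paralogs, between which reads may be split. It was the 1 called gene among 16 of purine synthesis, a list with a median of 0.0294.

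*CHA1*, the deaminase that breaks down serine and threonine, had 6.93, 8.04 and 6.48 CPM in *sis2*Δ and 9.67, 10.6 and 10.7 CPM in WT in 0.5 mM KCl. The levels in 7.35 mM KCl were 54.7, 54.1 and 72.2 CPM in *sis2*Δ and 213, 246 and 247 CPM in WT. Low potassium lowered it in both strains, and the gap between them was -0.53 in 0.5 mM KCl and -1.96 in 7.35 mM KCl, which gave an interaction of 1.43 (SE 0.151, adjusted p = 3.78e-06, edgeR's quasi-likelihood test). The other 14 tested genes of serine, glycine and one-carbon metabolism were not called.

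**Figure D2:**
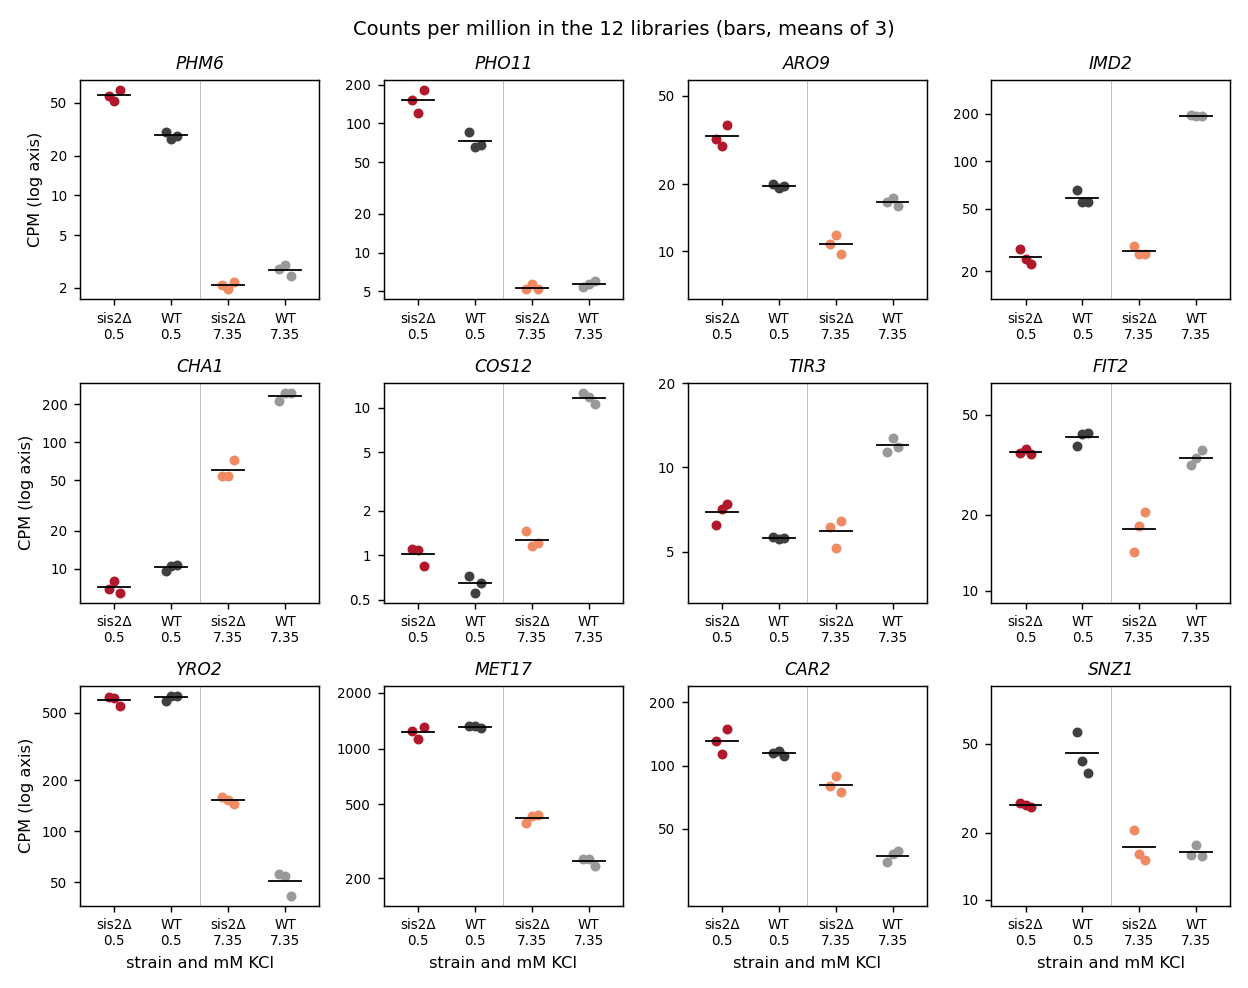
CPM of 12 genes in the 12 libraries on log axes, 1 point per library and a bar at the mean of 3, ordered as *sis2*Δ and WT in 0.5 mM KCl and *sis2*Δ and WT in 7.35 mM KCl. *PHM6*, *PHO11* and *ARO9* separate the strains in low potassium with *sis2*Δ on top, *IMD2*, *CHA1*, *COS12*, *TIR3* and *FIT2* show *sis2*Δ well below WT in 7.35 mM KCl, *YRO2*, *MET17* and *CAR2* show *sis2*Δ above WT there, and *SNZ1* shows *sis2*Δ below WT in 0.5 mM KCl alone.

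Genes near chromosome ends were frequent among the positive calls, a pattern seen in the values first and then counted. Of the 109 positive genes with a position in R64, 25 lay within 30 kb of a chromosome end (22.9%), against 3 of 61 negative genes (4.92%) and 346 of the 5892 tested genes with a position (5.87%). Of the 346, 229 had a positive interaction, and their median was 0.0766. Among the 25 are *PHO11*, *GIT1*, *IMD2*, *CHA1*, *DAL4* and YDR541C, which other paragraphs describe by function or shape, so the groups share genes. The 25 had a median of 275.2 counts per library and the other 84 positive genes 1065, against 1452 for all genes tested. Many such genes belong to families with near-identical copies, so that their counts are uncertain where reads were split.

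The highest of them was *COS12* (YGL263W), 2.79 kb from the left end of chromosome VII and a member of a family of subtelomeric membrane proteins that help sort proteins to the vacuole. It had 1.11, 1.09 and 0.846 CPM in *sis2*Δ and 0.729, 0.559 and 0.645 CPM in WT in 0.5 mM KCl. In 7.35 mM KCl it had 1.46, 1.16 and 1.21 CPM in *sis2*Δ and 12.7, 11.8 and 10.6 CPM in WT. WT in standard potassium stood apart from the other 9 libraries, and the interaction of 3.81 (SE 0.247, adjusted p = 4.52e-09, edgeR's quasi-likelihood test) was the highest of all genes tested. A further 2 of the 12 tested *COS* genes were called, *COS4* at 1.96 (SE 0.380, adjusted p = 0.00436), from a mean of only 21 counts per library, and *COS1* at 0.56 (SE 0.0964, adjusted p = 0.00131), both positive by edgeR's quasi-likelihood test. The median of the family was 0.0391, and 1.70% of all features were called positive.

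**Figure D3:**
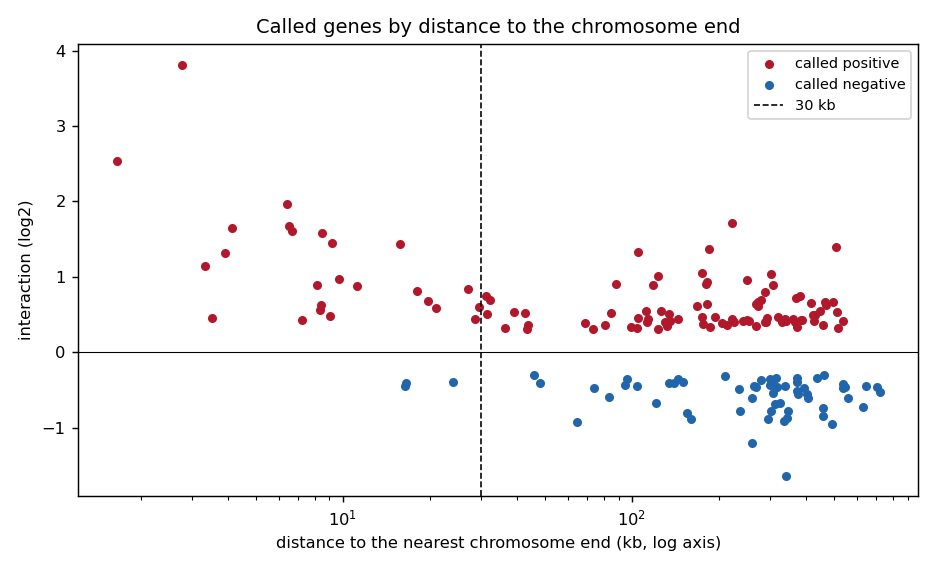
Distance to the nearest chromosome end in kb (log x axis) and interaction on the log2 scale (y axis) of the called genes with a position in R64; red, positive; blue, negative; dashed line, 30 kb. Left of the line lie 25 positive and 3 negative genes, with *COS12* at 3.81 on top.

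Cell wall mannoproteins of the PAU, DAN and TIR group, which are typically made without oxygen or in the cold, had positive values in all tested members. Of 30 members counted, 18 passed the low-count filter and were tested. The 18 tested members had a median of 0.479 and a range of 0.103 to 2.61, but only *TIR3* and *TIR1* passed the test, and *PAU10*, which has the highest value, did not (adjusted p = 0.0523, and 0.0350 under the replicate block). The value of *PAU10* came from a mean of only 7 counts per library. *TIR3* had 6.21, 7.11 and 7.42 CPM in *sis2*Δ and 5.63, 5.56 and 5.59 CPM in WT in 0.5 mM KCl, and 6.13, 5.16 and 6.41 CPM in *sis2*Δ and 11.3, 12.8 and 11.8 CPM in WT in 7.35 mM KCl. As for *COS12*, WT in standard potassium was the group that stood apart, and the interaction was 1.32 (SE 0.133, adjusted p = 2.92e-06, edgeR's quasi-likelihood test). *TIR1* had 1.05 (SE 0.160, adjusted p = 0.000460, same test). The genes share long stretches of sequence and many are subtelomeric, so that reads may be split between them.

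Of 26 genes of the iron regulon, which Aft1p switches on when iron is short, *FIT2* and *TIS11* were called positive and 0 negative, and the median was 0.0558. Among all features, 1.70% were called positive and 1.03% negative. *FIT2*, a cell wall mannoprotein that retains iron-siderophore complexes, had 35.3, 36.7 and 34.8 CPM in *sis2*Δ and 37.6, 42.1 and 42.2 CPM in WT in 0.5 mM KCl, and 14.2, 18.1 and 20.6 CPM in *sis2*Δ and 31.4, 33.6 and 36.2 CPM in WT in 7.35 mM KCl. The mutant in standard potassium was thus the low group. The interaction was 0.75 (SE 0.127, adjusted p = 0.00126) for *FIT2* and 0.65 (SE 0.111, adjusted p = 0.00130) for *TIS11*, a protein that binds mRNAs of iron-using proteins and promotes their decay, both by edgeR's quasi-likelihood test. *TIS11* had 25.9 to 30.9 CPM in *sis2*Δ and 25.3 to 30.8 CPM in WT in 0.5 mM KCl, so that the strains overlapped, and 11.3 to 12.2 CPM in *sis2*Δ and 17.8 to 19.4 CPM in WT in 7.35 mM KCl. The uptake genes *FET3* at 0.26 (adjusted p = 0.249) and *SIT1* at 0.44 (adjusted p = 0.139) did not pass. With the replicate number as a block *SIT1* did (0.44, adjusted p = 0.0152), and the list had 3 positive calls and 1 negative call, *ISU1* at -0.55.

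Both promoters hold the Aft1p core TGCACCC or its reverse complement 2 times and are printed for that, as the 200 bases that end 51 bases before the start codon in the R64 sequence of RefSeq, with the core in capitals on either strand. *TIS11* is on the minus strand (chrXII:416709-416908) and *FIT2* on the plus strand (chrXV:1059281-1059480).
TIS11: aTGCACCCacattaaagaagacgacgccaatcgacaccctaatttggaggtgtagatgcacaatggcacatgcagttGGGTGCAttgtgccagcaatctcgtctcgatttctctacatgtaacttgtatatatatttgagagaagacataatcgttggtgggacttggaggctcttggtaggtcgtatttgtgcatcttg
FIT2: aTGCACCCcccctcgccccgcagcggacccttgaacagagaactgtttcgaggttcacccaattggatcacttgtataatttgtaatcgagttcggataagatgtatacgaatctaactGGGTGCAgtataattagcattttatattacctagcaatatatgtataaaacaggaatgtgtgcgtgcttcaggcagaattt
The matches start 249 and 173 bases before the start codon of *TIS11* and 249 and 131 bases before that of *FIT2*. The core was in 3 of 107 promoters of positive genes (2.80%), 1 of 61 of negative genes (1.64%) and 75 of all 5885 (1.27%).

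Nitrogen genes split by sign. Nitrogen catabolite repression is the repression of genes for poor nitrogen sources while a good one is present. Of 23 tested genes in a list drawn up for it, 3 were called positive and 3 negative, with a median of 0.187. The shares over all features were 1.70% positive and 1.03% negative. The list also holds glutamate dehydrogenases, and membership does not show that a gene is under this repression. The positive ones were the allantoin genes *DAL1* at 0.69 (SE 0.133, adjusted p = 0.00397) and *DAL4* at 0.59 (SE 0.154, adjusted p = 0.0395), which lie head to head with 825 bases between them, and the glutamate dehydrogenase *GDH3* at 0.50 (SE 0.0946, adjusted p = 0.00349). The negative ones were the arginine-breaking enzymes *CAR2* and *CAR1* and the main glutamate dehydrogenase *GDH1*. *CAR2*, ornithine aminotransferase, had 131, 113 and 148 CPM in *sis2*Δ and 114, 117 and 111 CPM in WT in 0.5 mM KCl, and 79.5, 89.3 and 74.7 CPM in *sis2*Δ and 34.6, 37.8 and 38.9 CPM in WT in 7.35 mM KCl. The strains overlapped in low potassium and were far apart in standard potassium, and the interaction was -0.93 (SE 0.116, adjusted p = 3.13e-05, edgeR's quasi-likelihood test). The call of *DAL4* was kept in 4 of the 12 fits without 1 library. *CAR1*, arginase, had -0.44 (SE 0.0944, adjusted p = 0.0103) and *GDH1* -0.41 (SE 0.0992, adjusted p = 0.0254). The feature YLR437C-A at -0.94 is next to *CAR2* by its name, on the other strand, and its reads cannot be told apart from those of *CAR2*.

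In arginine synthesis, 1 of 10 tested genes was called in each direction and the median was -0.204, with 1 positive and 3 negative calls under the replicate block. *ARG3*, ornithine carbamoyltransferase, was lower in *sis2*Δ in both media but by less in low potassium, with -0.31 for 0.5 mM KCl against -0.95 for 7.35 mM KCl (interaction 0.64, SE 0.106, adjusted p = 0.00103). *ARG4*, argininosuccinate lyase, was lower in *sis2*Δ in 0.5 mM KCl alone, at -0.43, against -0.02 in 7.35 mM KCl (interaction -0.41, SE 0.0875, adjusted p = 0.0110). The ammonium permease *MEP3*, 1 of 6 tested genes of ammonium uptake and export, had 0.41 (SE 0.0905, adjusted p = 0.0132, edgeR's quasi-likelihood test as for the other adjusted p-values).

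Among genes of sulfur metabolism, *MET17* and *STR3* were called negative. *MET17*, the enzyme that incorporates sulfide to form homocysteine, had 1242, 1127 and 1311 CPM in *sis2*Δ and 1333, 1320 and 1286 CPM in WT in 0.5 mM KCl. With 7.35 mM KCl it had 396, 434 and 437 CPM in *sis2*Δ and 253, 254 and 232 CPM in WT. Low potassium raised it in both strains to about the same level, and the gap was -0.10 in low potassium and 0.78 in standard potassium (interaction -0.87, SE 0.0945, adjusted p = 4.43e-06, edgeR's quasi-likelihood test). YLR302C at -0.78 overlaps *MET17* on the opposite strand, so that their reads cannot be told apart. *STR3*, a cystathionine beta-lyase, had 20.9, 21.9 and 22.8 CPM in *sis2*Δ and 28.2, 27.2 and 29.2 CPM in WT in 0.5 mM KCl, and 7.07, 9.09 and 7.62 CPM in *sis2*Δ and 5.78, 5.94 and 5.72 CPM in WT in 7.35 mM KCl. Its strain difference passed the test in both media with opposite signs, at -0.37 and 0.44. These were the 2 called genes of 26 of sulfur metabolism, 22 of which had a negative value, with a list median of -0.150, and under the replicate block 4 were called. By the main test, 1.03% of all features were called negative.

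*SNZ1* and *SNO1*, which together make vitamin B6, lie head to head with 448 bases between them and were the 2 called genes of 9 of that pathway, both negative. Of the 9, 6 had a positive value and 3 a negative one, with a median of 0.0679, and the highest was *SNO3* at 0.54 (adjusted p = 0.0666). *SNZ1* had 27.1, 26.7 and 26.1 CPM in *sis2*Δ and 56.7, 41.9 and 37.2 CPM in WT in 0.5 mM KCl, and 20.6, 16.1 and 15.1 CPM in *sis2*Δ and 15.9, 17.6 and 15.8 CPM in WT in 7.35 mM KCl. Here the strains overlapped in standard potassium and were apart in low potassium, the reverse of most negative genes. The interaction was -0.84 (SE 0.169, adjusted p = 0.00596) for *SNZ1* and -0.74 (SE 0.158, adjusted p = 0.0103) for *SNO1*, by edgeR's quasi-likelihood test. *SNZ1* has close paralogs.

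The shared region is shown from the side of *SNZ1* because it holds the letters TGACTC that Gcn4p binds, in capitals, 179 bases before the start codon, in the 200 bases that end 51 bases before that codon (chrXIII:458158-458357, plus strand, R64 sequence of RefSeq).
SNZ1: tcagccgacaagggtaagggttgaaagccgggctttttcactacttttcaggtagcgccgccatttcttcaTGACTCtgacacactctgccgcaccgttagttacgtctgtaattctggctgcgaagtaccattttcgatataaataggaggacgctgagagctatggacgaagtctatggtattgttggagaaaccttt
TGACTC on either strand was in 9 of 61 promoters of negative genes (14.8%), 10 of 107 of positive genes (9.35%) and 478 of all 5885 (8.12%). *PCL5*, the cyclin that directs the breakdown of Gcn4p, was itself called: it had 257, 233 and 260 CPM in *sis2*Δ and 261, 251 and 256 CPM in WT in 0.5 mM KCl, and 134, 138 and 131 CPM in *sis2*Δ and 79.7, 80.7 and 79.8 CPM in WT in 7.35 mM KCl. The gap was -0.03 in low potassium and 0.74 in standard potassium (interaction -0.78, SE 0.0795, adjusted p = 2.92e-06, edgeR's quasi-likelihood test).

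The lowest interaction of all genes was that of *YRO2* (YBR054W, chromosome II), a membrane protein of the rhodopsin-related family that stress induces. It had 618, 613 and 548 CPM in *sis2*Δ and 589, 630 and 630 CPM in WT in 0.5 mM KCl. With 7.35 mM KCl it had 159, 154 and 145 CPM in *sis2*Δ and 56.4, 54.8 and 41.8 CPM in WT. The strains overlapped in low potassium and stood apart in standard potassium, with gaps of -0.06 and 1.58 and an interaction of -1.64 (SE 0.120, adjusted p = 1.62e-08, edgeR's quasi-likelihood test). *YGP1*, a secreted glycoprotein, had the same shape, with gaps of -0.07 and 0.84 and an interaction of -0.91 (SE 0.0987, adjusted p = 4.43e-06, same test).

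Of the 28 tested genes of the general stress list, 4 were called negative and 1 positive, with a median of -0.0297, and under the replicate block 5 were called negative. Beside *YRO2*, the negative ones were *DDR48* at -0.69 (SE 0.0930, adjusted p = 9.78e-05), the mitochondrial disaggregase *HSP78* at -0.61 (SE 0.127, adjusted p = 0.00861) and the small heat shock protein *HSP42*, which kept its call in 5 of the 12 fits without 1 library. The positive one was *TFS1*, an inhibitor of a vacuolar protease, at 0.54 (SE 0.125, adjusted p = 0.0190, edgeR's quasi-likelihood test). By its name YMR173W-A lies at the place of *DDR48*, and reads of the 2 may be mixed. The letters AGGGG, which Msn2p and Msn4p bind, were on either strand in 21 of 61 promoters of negative genes (34.4%), 29 of 107 of positive genes (27.1%) and 1280 of all 5885 (21.8%).

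Genes of respiration mostly had small negative values, few of which passed the test. Of the 28 tested genes of the respiratory chain, 2 were called negative and 0 positive, 22 had a negative value and the median was -0.166. Among all features, 1.03% were called negative and 1.70% positive. Of the 14 genes of ATP synthase, 1 was called, *ATP3*, or 2 under the replicate block, all 14 had a negative value and the median was -0.170. *COX4*, a subunit of cytochrome c oxidase, had 168, 188 and 167 CPM in *sis2*Δ and 140, 168 and 162 CPM in WT in 0.5 mM KCl, and 112, 102 and 110 CPM in *sis2*Δ and 75.8, 74.2 and 71.8 CPM in WT in 7.35 mM KCl. The strains overlapped in low potassium and were apart in standard potassium, and the interaction was -0.39 (SE 0.0969, adjusted p = 0.0284, edgeR's quasi-likelihood test). *COX6*, another subunit, had -0.32 (SE 0.0788, adjusted p = 0.0277) and *ATP3* -0.34 (SE 0.0867, adjusted p = 0.0344). These 3 calls often depended on a single library: when each library was left out in turn, *COX4* and *ATP3* stayed past the threshold 4 times out of 12 and *COX6* 5 times. The letters CCAAT, the core of the Hap complex that activates respiratory genes, were in 27 of 61 promoters of negative genes (44.3%), 52 of 107 of positive genes (48.6%) and 2560 of all 5885 (43.5%).

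Further negative calls, by edgeR's quasi-likelihood test, included *CIT2*, the peroxisomal citrate synthase, at -0.67 (SE 0.107, adjusted p = 0.000720). It was the 1 called gene among 12 of the glyoxylate cycle and gluconeogenesis, 9 of which had a positive value, with a median of 0.0585. In the same test, *ADR1*, an activator of glucose-repressed genes, had -0.73 (SE 0.123, adjusted p = 0.00127). *GGC1*, the mitochondrial GTP and GDP carrier, had -0.45 (SE 0.0831, adjusted p = 0.00337). For *ADR1*, *sis2*Δ had 71.0, 57.0 and 55.1 CPM in 7.35 mM KCl, against 31.9, 35.1 and 35.1 CPM in WT, which was the lowest of the 4 groups. Of 137 genes of cytosolic ribosomal proteins, *RPS9A* alone was called, at -0.56 (SE 0.0935, adjusted p = 0.00121), and the list median was 0.000686. *RPS9A* has a near-identical copy, *RPS9B*.

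Hexose transporters had 1 call in each direction among 16 tested genes. *HXT2*, a high-affinity glucose transporter, had 113, 130 and 132 CPM in *sis2*Δ and 139, 120 and 108 CPM in WT in 0.5 mM KCl, and 242, 212 and 205 CPM in *sis2*Δ and 374, 404 and 345 CPM in WT in 7.35 mM KCl. Again the strains overlapped in low potassium alone, and the interaction was 0.80 (SE 0.124, adjusted p = 0.000535, edgeR's quasi-likelihood test). *HXT7*, whose sequence is nearly that of *HXT6*, had -0.56 (SE 0.141, adjusted p = 0.0344) and kept its call in 4 of the 12 fits without 1 library. Of 12 genes of NAD synthesis and uptake, 3 were called and all 3 were positive: the kynurenine pathway enzymes *BNA5* at 0.62 (SE 0.0881, adjusted p = 0.000179) and *BNA4* at 0.53 (SE 0.0995, adjusted p = 0.00341) and the nicotinamide riboside transporter *NRT1* at 0.36 (SE 0.0875, adjusted p = 0.0258). Of the 12, 6 had a positive and 6 a negative value, the median was 0.0835, and *NRT1* kept its call in 4 of the 12 fits without 1 library. Among all features, 1.70% were called positive.

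**Figure D4:**
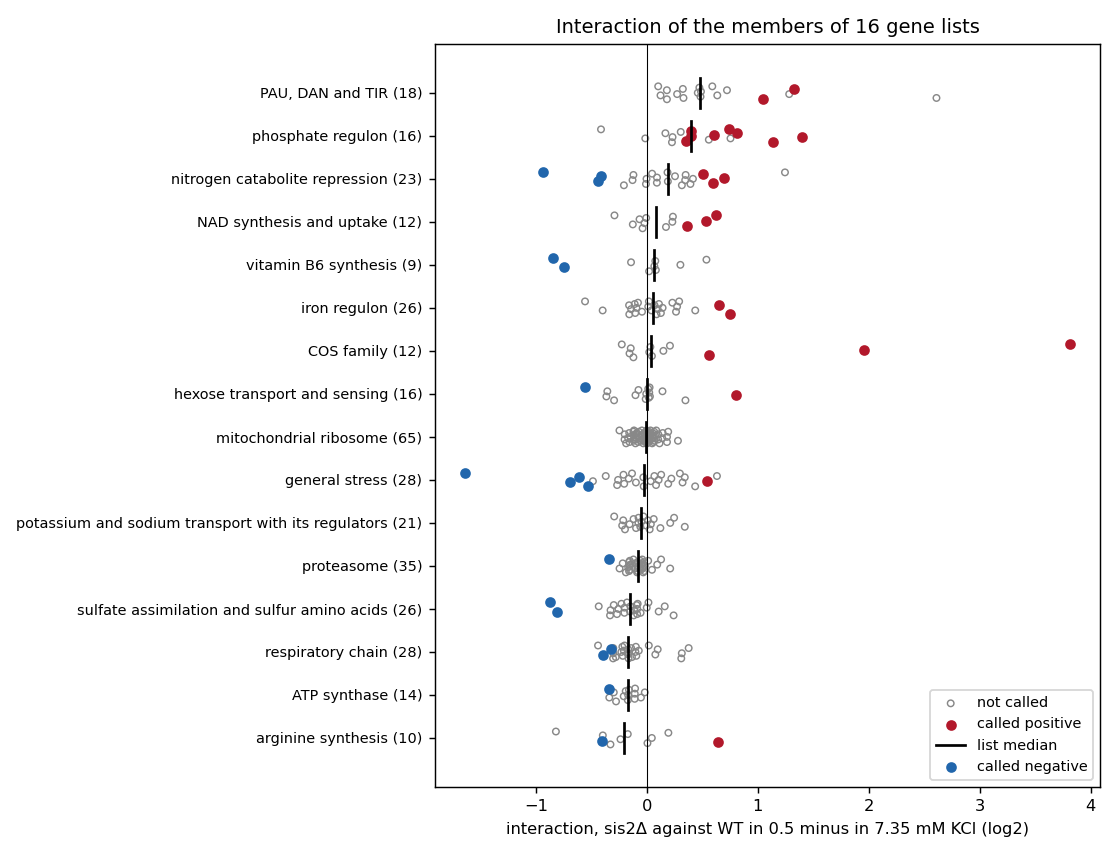
Interaction on the log2 scale (x axis) of each tested member of 16 gene lists (rows, number of members in brackets), ordered by median; red, called positive; blue, called negative; open circles, not called; black bars, list medians. The PAU, DAN and TIR list and the phosphate regulon have the highest medians, 0.479 and 0.397, and all members of ATP synthase lie left of 0.

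The 21 tested genes of potassium and sodium transport and its regulators had 0 calls by edgeR's quasi-likelihood test, with 3 at an unadjusted p under 0.05, and a median of -0.0479. DESeq2 called 2 of them and the fit with the replicate block also 2, *TRK2* and *SAT4*. *TRK1*, the high-affinity potassium transporter, had an interaction of -0.12 (SE 0.0893, adjusted p = 0.595), and *PPZ1* had 0.06 (SE 0.0845, adjusted p = 0.812). The low-affinity transporter *TRK2* was close to the threshold at 0.34 (SE 0.0950, adjusted p = 0.0559), with 43.4, 39.2 and 40.7 CPM in *sis2*Δ and 46.7, 39.3 and 40.4 CPM in WT in 0.5 mM KCl, and 45.4, 43.4 and 42.9 CPM in *sis2*Δ and 57.3, 60.3 and 53.6 CPM in WT in 7.35 mM KCl. Under the replicate block its adjusted p was 0.0279, with a value of 0.35, and that of *SAT4* was 0.0402, with a value of -0.29. The kinases *SAT4* (Hal4p) and *HAL5*, which stabilize Trk1p, had -0.29 (SE 0.0882, adjusted p = 0.0783) and -0.21 (SE 0.0893, adjusted p = 0.247) by the same edgeR quasi-likelihood test. A p that misses the threshold does not show equal effects.

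In 19 of the 46 lists no member was called by edgeR's quasi-likelihood test. Over all 6691 features 183 (2.74%) were called. A short list without a call is thus near that share, and its 0 is no result about the pathway. Among the 11 genes of coenzyme A synthesis, the other pathway of Sis2p, 0 had an unadjusted p under 0.05, 0 were called by DESeq2 or under the replicate block and the median was -0.0287. Of the 12 genes of the TCA cycle 3 had an unadjusted p under 0.05, 1 was called by DESeq2 and 1 under the replicate block, with a median of -0.0485. Of the 22 genes of glycolysis and fermentation 5 had an unadjusted p under 0.05, 0 were called by DESeq2 and 1 under the replicate block, with a median of 0.0927. Of the 18 amino acid permeases 5 had an unadjusted p under 0.05, 0 were called by DESeq2 and 1, *ALP1* at 0.54, under the replicate block (adjusted p = 0.0440), with a median of -0.103. Of the 183 called genes, 56 were in a list and 127 in none.

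For 10 genes the interaction and both strain differences passed the test and the strain difference changed sign between the media. In 8 of them, *sis2*Δ was the higher strain in 0.5 mM KCl and the lower one in 7.35 mM KCl: *ARO9*, YHR137C-A, *GIT1*, YIR042C, YDR541C, YER188W, YMR321C and YPR078C. In *STR3* and *GGC1* it was the other way round. YDR541C, annotated in RefSeq as a carbonyl reductase, had 39.2, 35.7 and 39.7 CPM in *sis2*Δ and 24.0, 22.4 and 26.9 CPM in WT in 0.5 mM KCl, and 37.3, 34.5 and 35.7 CPM in *sis2*Δ and 42.9, 41.9 and 42.4 CPM in WT in 7.35 mM KCl. WT in low potassium was thus the low group, and the interaction was 0.88 (SE 0.0916, adjusted p = 3.20e-06, edgeR's quasi-likelihood test).

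The called features among the retrotransposon, tRNA and snoRNA genes counted here were all negative. Over all 6691 features, 69 (1.03%) were called negative and 114 (1.70%) positive. Of 76 tested Ty features that RefSeq annotates as Gag or Gag-Pol proteins, 7 were called negative and 0 positive, 63 had a negative value and the median was -0.259. The largest was YOR142W-B at -0.95 (SE 0.152, adjusted p = 0.000747, edgeR's quasi-likelihood test). Ty copies are near-identical and most reads fit several, so the features are not separate measurements. Of 65 tRNA genes, 2 were called negative and the median was -0.329, and of 77 snoRNA genes 2 were called negative, 43 had a positive value and the median was 0.0594. The tRNA gene tH(GUG)E2 at -1.13 kept its call in 4 of the 12 fits without 1 library. These RNAs carry no poly(A) tail and were seen at low levels after poly(A) selection: tRNA, rRNA and snoRNA features held 0.0385% to 0.0402% of counts in *sis2*Δ and 0.0347% to 0.0377% in WT in 0.5 mM KCl, and 0.0304% to 0.0315% in *sis2*Δ and 0.0260% to 0.0281% in WT in 7.35 mM KCl. The part of this difference in their values was not tested.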

How the data were processed

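RNA was collected from 12 cultures, enriched for poly(A) RNA and sequenced from a directional library kit. Per the labels and methods, the authors used bcl2fastq, trimmed reads with cutadapt 2.6, aligned them with STAR 2.7.6a to genome build R64 and counted them per gene with featureCounts of Subread 1.6.2. The deposited table holds expected counts, of which 40.11% were whole numbers, and all were rounded to whole numbers here. The strand and multi-mapping settings are not given in the sources used here, so overlapping, antisense and near-identical features may share reads.

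Of 7112 features, 6691 passed filterByExpr. A model with 4 group means was fitted to all 12 libraries with TMM scaling (edgeR 4.0.16 quasi-likelihood test, limma 3.58.1, R 4.3.3). The interaction and each strain and potassium difference were contrasts of this model, with Benjamini-Hochberg adjustment over all features. Every adjusted p is from this test unless another is named. DESeq2 1.42.0, its size factors, other count filters, the replicate block, the removal of RNA-class features and of each library in turn were alternatives. In a test on simulated data, edgeR recovered 176 of 200 interactions with 6 false calls. Python 3.11.15, NumPy 2.4.6, pandas 2.3.3 and matplotlib 3.10.9 were used for summaries and figures. Promoters were cut from the RefSeq R64 genome, on which 6034 features were matched by ID.

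The gene lists and comparisons were chosen with earlier results of these data known. Genes named were *SIS2*, the 15 highest and 15 lowest called interactions with a mean of at least 50 counts that kept their call without each library in turn, up to 3 called members of each list in each direction, genes with called strain differences of opposite sign, and the potassium and *COX* genes the study discusses. *PHO5*, *PHO8*, *PHO12*, *PHO81*, *PHO84*, *PHO86*, *PHO89*, *SPL2*, *PHM8*, *VTC1*, *VTC2*, *VTC3*, *VTC4*, *ARO10*, *ARO80*, *FET3*, *SIT1*, *ISU1*, *PAU10*, *SNO3*, *HSP42*, YKR073C and the chromosome-end count were chosen after their values were seen. The sample titles number the biological replicates of each group, and this number was used as the block. Deviations from the group means correlated with a median r of 0.0576 over 18 same-numbered pairs of libraries and -0.0343 over 36 others. The titles do not say what same-numbered cultures shared, so p-values measure the spread between these cultures.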

Additional observations from a re-analysis of the deposited data

Results flagged for a closer look

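The strain difference in 0.5 mM KCl minus that in 7.35 mM KCl passed edgeR's quasi-likelihood test of the difference itself for 70 of the genes named by the rule. Values are that difference on the log2 scale.

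Among genes near chromosome ends or in families that share sequence, *COS12* had 3.81, *COS4* 1.96, *COS1* 0.56, *TIR3* 1.32, *TIR1* 1.05, *YPS5* 1.58, YMR321C 1.67, YOL164W-A 1.65, YIR042C 1.32, YAR064W 0.98 and YER188W 0.90. The phosphate genes *PHM6*, *PHO11* and *GIT1* had 1.40, 1.14 and 0.81. Of genes placed in other groups here, *PHO11*, *GIT1*, *IMD2*, *CHA1*, *DAL4* and YDR541C also lie within 30 kb of a chromosome end.

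Among enzymes and transporters with a positive difference, *IMD2* had 1.604, *CHA1* 1.43, *ARO9* 1.37 with its neighbour YHR137C-A at 1.54, *HXT2* 0.80, *DAL1* 0.69, *DAL4* 0.59, *ARG3* 0.64, *BNA5* 0.62, *BNA4* 0.53, *NRT1* 0.36, *GDH3* 0.50, *INO1* 0.50, *MEP3* 0.41 and *URA8* 0.31. The iron genes *FIT2* and *TIS11* had 0.75 and 0.65. The remaining positive differences were those of YBR032W at 1.04, YPR078C at 0.95, YDR541C at 0.88, *TFS1* at 0.54 and *DBP2* at 0.40.

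On the negative side, the stress genes *YRO2*, *DDR48* and *HSP78* had -1.64, -0.69 and -0.61, and *YGP1* and *TMA10* had -0.91 and -0.89. Of amino acid, sulfur and vitamin genes, *CAR2* had -0.93 with YLR437C-A at -0.94, *CAR1* -0.44, *GDH1* -0.41, *ARG4* -0.41, *ARO1* -0.46, *PCL5* -0.78, *MET17* -0.87 with YLR302C at -0.78, *STR3* -0.81, *SNZ1* -0.84, *SNO1* -0.74 and *THI7* -0.30. Of genes of mitochondria and carbon metabolism, *ADR1* had -0.73, *CIT2* -0.67, *GGC1* -0.45, *COX4* -0.39, *COX6* -0.32, *ATP3* -0.34 and *HXT7* -0.56. *DPI8* had -0.89, *SPO24* -0.78, *RPS9A* -0.56 and *RPT2* -0.34.

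Of features with near-identical copies or without a poly(A) tail, tH(GUG)E2 had -1.13, YOR142W-B -0.95, tG(GCC)D2 -0.69, snR86 -0.62 and snR44 -0.44.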

How the results depend on the processing

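The count of genes with an interaction (183, of which 114 positive and 69 negative) ranged between 111 and 340 over the 12 fits that leave out 1 library, positive calls between 68 and 196 and negative calls between 42 and 144. Asking for an absolute log2 value of at least 0.5 left 96 genes, 62 positive and 34 negative. DESeq2 called 119 negative genes and 122 positive, a positive share of 50.6% against 62.3% in edgeR. With the replicate number as a block, 105 negative genes were called. In total it called 249 genes, and the block removed no call of a gene named by the rule. The cause of these shifts was not tested. Of 1255 recomputed values for the 70 called genes named by the rule, 1158 kept their direction and side of the threshold, 97 kept the direction and lost the threshold, and 0 reversed. Of the 70, 53 kept their call in every fit that leaves out 1 library, against 98 of all 183 called genes. The naming rule took its highest and lowest interactions only from genes that kept their call in all of these fits. That choice partly set the 53 of 70 and the 1158 unchanged values in advance, so neither count is a test of robustness. With 3 cultures a group, and at this depth, edgeR recovered 78% of interactions of 0.5 and 98% of those of 1 in the simulated data for this contrast, so that smaller ones can be missed.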
